A study of Homo sapiens with 12 samples.

Results

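Human imprinted genes other than *PEG10* were followed in HEK293 cells, a line derived from human embryonic kidney, after transfection with *PEG10* constructs. The set comprised 35 named genes out of 26485 in the count table, chosen by name as known human imprinted genes or neighbors in an imprinted cluster, and all 35 were found in the table. The 12 libraries were made from poly(A) RNA of wild-type HEK293 cells and fall into 4 groups of 3, each transfected with a plasmid: PEG10 gag-pol, PEG10 gag, the nucleocapsid fragment of gag (NC), or, as control, LifeAct-Dendra2, an actin-binding peptide joined to a fluorescent protein. The 3 replicates of each construct came from independent passages of the cells, and because no group was left untransfected, transfection itself is common to all of them. The cells are one immortalized line, and the counts are per gene, so that RNA from the maternal and paternal copies was added together. Allele-specific expression was therefore not measured, and the plasmid is not separated from the chromosomal copy of *PEG10*.

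Imprinting restricts expression of a gene to the copy inherited from one parent. The restriction is set by DNA methylation laid down in the egg or sperm at imprinting control regions, and it is protected after fertilization by zinc finger proteins, chief among them *ZFP57*, which recruit TRIM28 and the DNA methyltransferases. Imprinted genes lie in clusters and many act on growth: paternally expressed genes such as *IGF2* promote it, and maternally expressed genes such as *CDKN1C* and *PHLDA2* restrain it. *PEG10*, a gene domesticated from a Ty3-type retrotransposon, is itself paternally expressed and lies head to head with *SGCE* in the imprinted cluster at 7q21.

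*PEG10* checked the transfections. It took 0.02299 to 0.03462% of all counts in control cells, 2.796 to 7.35% in gag-pol cells, 3.784 to 6.096% in gag cells and 0.2384 to 0.3893% in NC cells. Control, NC and the 2 longer constructs were thus told apart, and no library went against its label in this respect. The gag-pol and gag ranges overlapped, so the check cannot tell those 2 labels from each other. Totals ran from 30625725 to 45316749 counts per library. Of 10 genes typical of HEK293 cells, 9 were tested, and only *GAL*, at 0 to 2 counts, was near 0. Several markers of other cell types had too few counts to be tested, namely *DCN*, *LUM* and *THY1* of fibroblasts, *PTPRC*, *CD3E*, *HBB* and *LYZ* of blood cells, *KRT5* and *KRT14* of keratinocytes and *CDH5* of endothelium, which reached at most 16 counts in any library. The remaining markers of the same lists were tested, with *COL1A1* at 644 to 1498, *COL3A1* at 19 to 350 and *PDGFRA* at 40 to 111 counts among the fibroblast markers, the macrophage marker *CD68* at 441 to 922, the epithelial markers *EPCAM* at 1911 to 3930 and *CDH1* at 139 to 452, and the endothelial markers *KDR* at 0 to 40 and *PECAM1* at 1 to 30.

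Promoters are shown for 3 of the genes whose counts changed with a construct, because CpG dinucleotides, the sites of DNA methylation, and the hexanucleotide TGCCGC, which *ZFP57* binds when it is methylated, can be read from them. Each window is from RefSeq on GRCh38.p14 and runs from 250 bases before to 50 bases after an annotated start, on the minus strand for all 3 genes, with any TGCCGC, or GCGGCA as its reverse complement, in capitals. *COPG2* (chr7:130668699-130668998) held 37 CpG dinucleotides and no hexanucleotide. *GRB10* (chr7:50793404-50793703), shown at the first listed of its 5 starts, held 44 CpG dinucleotides and 1 hexanucleotide. *DIRAS3* (chr1:68050578-68050877) held 21 CpG dinucleotides and 2 overlapping hexanucleotides, one on each strand.
COPG2: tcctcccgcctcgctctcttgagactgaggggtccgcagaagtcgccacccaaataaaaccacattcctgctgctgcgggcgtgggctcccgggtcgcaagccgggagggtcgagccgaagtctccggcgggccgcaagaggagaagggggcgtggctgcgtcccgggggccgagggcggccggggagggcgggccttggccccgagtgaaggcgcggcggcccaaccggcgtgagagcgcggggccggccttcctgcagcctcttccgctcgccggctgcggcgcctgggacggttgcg
GRB10: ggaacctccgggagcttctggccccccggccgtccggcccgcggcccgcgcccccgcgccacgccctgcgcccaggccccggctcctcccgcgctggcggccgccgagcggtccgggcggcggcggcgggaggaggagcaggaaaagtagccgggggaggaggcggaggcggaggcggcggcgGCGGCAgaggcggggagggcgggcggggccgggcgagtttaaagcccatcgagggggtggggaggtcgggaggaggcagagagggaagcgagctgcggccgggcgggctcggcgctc
DIRAS3: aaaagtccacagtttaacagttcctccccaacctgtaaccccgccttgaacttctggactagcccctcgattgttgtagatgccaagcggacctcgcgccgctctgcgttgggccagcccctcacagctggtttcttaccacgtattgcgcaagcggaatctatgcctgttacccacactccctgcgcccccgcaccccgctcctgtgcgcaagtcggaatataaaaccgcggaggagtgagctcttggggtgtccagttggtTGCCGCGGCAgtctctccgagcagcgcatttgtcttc
These CpG counts lie at percentiles 88.9, 95.9 and 60.5 of 27305 windows of the same length, whose median was 14. The hexanucleotide occurred on either strand in 16.7% of all windows and in 8 of the 23 members with a window (34.8%). It contains a CpG itself, and the median CpG count of the member windows was 21, beside 14 for all windows. The part of CpG content in the share of windows with the hexanucleotide was not tested. A letter match is a description of the window, and neither methylation nor binding was measured.

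The imprinted genes took a small share of the RNA, between 0.194 and 0.239% of the counts of a library. Every gag-pol and gag library, at 0.216% or less, lay below the lowest control library, at 0.221%. NC overlapped control, with 0.211% in replicate 3 and 0.239% in replicate 1. The counts of a library include *PEG10* and its plasmid, which reached 7.35% in gag-pol replicate 1. The part of *PEG10* in the lower shares was not tested. Of the counts of the imprinted genes, *GNAS* alone supplied 60.4 to 68.3%. *GNAS* encodes the stimulatory G protein alpha subunit, which couples hormone receptors to adenylyl cyclase, and its main transcript is made from both copies in most tissues. Its normalized counts, which are counts scaled to the mean library total after TMM normalization, were 54612, 51547 and 53825 in control cells, 47533, 46099 and 52635 with gag-pol, 50964, 47103 and 58971 with gag, and 57450, 54780 and 50985 with NC. The 4 groups overlapped, and no comparison of constructs called *GNAS*.

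To compare genes with each other, normalized counts were divided by the length of the Ensembl canonical transcript in kilobases (kb). In control cells *GNAS* stood at 28764 ± 859 per kb (SD, n = 3), 18.8 times the level of the next gene, *NAP1L4*, a histone chaperone of the 11p15 cluster, at 1529 ± 218. *SGCE*, which encodes epsilon-sarcoglycan of the plasma membrane, followed at 894 ± 86.4 per kb, then *RB1*, the retinoblastoma protein that holds back entry into S phase, at 824 ± 157, and *BLCAP*, a small membrane protein gene that contains *NNAT* in an intron, at 816 ± 60.8. The order of *SGCE*, *RB1* and *BLCAP* did not exceed the spread between replicates. In all, 17 of 35 members stood at 100 or more per kb. Of the growth genes, the maternally expressed restrainer *PHLDA2* (592 ± 102 per kb) and *GRB10*, an adaptor that dampens insulin receptor signaling (559 ± 104), were far above *CDKN1C*, the p57 cyclin-dependent kinase inhibitor (151 ± 47.0), and above *IGF2*, the fetal growth factor (45.1 ± 11.7).

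**Figure D1:**
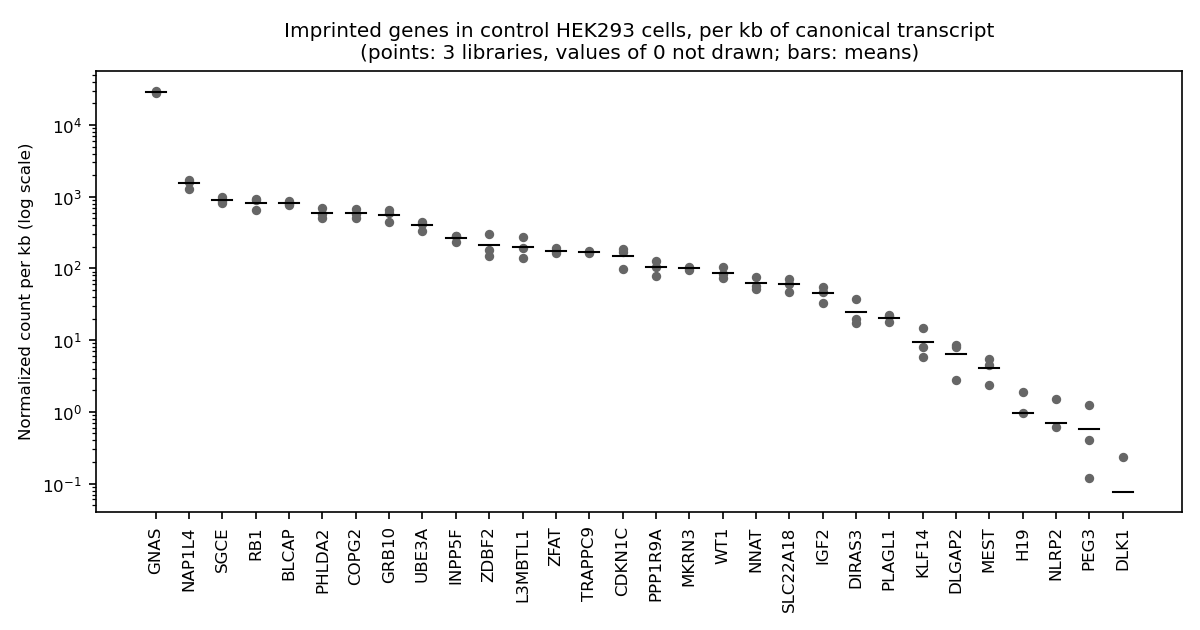
Normalized counts per kb of canonical transcript in the 3 control libraries (points, log axis) and their mean (bars) for the imprinted genes with a count in control cells. *GNAS* stands alone at 28764 per kb, 17 genes lie at 100 or more, and *PEG3*, *NLRP2*, *H19* and *DLK1* lie below 1.

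The 8 members with too few counts to be tested include genes that define classic imprinted regions. *NDN*, a MAGE family gene of the Prader-Willi region at 15q11, had 0 counts in all 12 libraries, which allows at most 0.00665 per 1000000 over the 450950243 counts of the experiment. *SNRPN*, a spliceosomal protein gene of the same region, had 2 counts, both in NC replicate 2, and 78.1% of its canonical transcript is shared with *SNURF*, which was at 0 throughout. How reads shared by both genes were counted is not stated. *MAGEL2*, the neighbor of *NDN*, had 7 counts in gag-pol replicate 3, 4 in gag replicate 3 and none elsewhere. At 14q32 *DLK1*, a Notch-ligand-like membrane protein, reached at most 2 counts, and the noncoding RNA *MEG3* was counted in the NC libraries alone, with 1, 4 and 1 counts, a level too low for a comparison. The noncoding RNA *H19* of 11p15 had 0 to 8 counts and *NLRP2*, of a family of cytosolic sensors, had 0 to 10, and the 10 counts of *ZIM2*, which shares 41.7% of its canonical transcript with *PEG3*, all came from gag-pol replicate 2. The 2 other genes tested at 15q11 were expressed: *UBE3A*, the ubiquitin ligase lost in Angelman syndrome, ran from 2928 to 4130 normalized counts and *MKRN3*, a RING finger protein gene, from 185 to 337.

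Gag-pol was compared with control to ask which imprinted genes respond to the full polyprotein. *RB1* and *DIRAS3*, both genes that restrain growth, fell, and *WT1*, a zinc finger transcription factor of the developing kidney, rose. These were 3 of 27 tested members (11.1%), beside 11.3% of all genes tested, and the median log2 fold change of the members was 0.096 beside -0.001 for all genes. All calls rest on the quasi-likelihood test of edgeR at a Benjamini-Hochberg adjusted p under 0.05, in a fit that includes the replicate number. In a bulk sample, fewer cells expressing a gene and less of its RNA per cell cannot be told apart. Of the 9 tested HEK293 markers, *NEFL* and *NEFH* were called with gag-pol, 1 higher and 1 lower. Of 6 fibroblast markers 3 were tested, and *COL3A1* was called lower with gag-pol. The 6 markers summed to 28.4 to 56.0 per 1000000 counts in control cells, 23.2 to 30.8 in gag-pol cells, 27.3 to 28.7 in gag cells and 19.2 to 28.4 in NC cells, *DCN*, *LUM* and *THY1* were at or near 0, and the part of these markers in the results was not tested. The comparisons with control share the same 3 control libraries and are not independent of each other.

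*RB1* had 4428, 3067 and 4295 normalized counts in control cells, 2632, 2377 and 2485 with gag-pol, 3610, 2250 and 3621 with gag, and 3828, 2756 and 2762 with NC. The 3 gag-pol libraries were all below the 3 control libraries, whereas gag overlapped both and NC overlapped control. The log2 fold change with gag-pol was -0.63 (SE 0.11, 95% interval -0.86 to -0.40, adjusted p = 0.0020), or 0.645 times the control level, and it stayed called when each of the 12 libraries was left out in turn, with a highest adjusted p of 0.028. With gag the log2 fold change was -0.32 (SE 0.11, adjusted p = 0.18) and with NC -0.33 (SE 0.11, adjusted p = 0.062), neither of which passed. Other settings did call *RB1* there. For NC it was called by DESeq2, without a filter on low counts and in a fit of the 6 compared libraries alone. For gag it was called in the fit of the 6 compared libraries.

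*DIRAS3*, a paternally expressed Ras-like GTPase with tumor suppressor activity, was low in all groups. Its normalized counts were 25.9, 29.3 and 55.9 in control cells, 7.05, 11.7 and 12 with gag-pol, 18.1, 15.7 and 24.7 with gag, and 13.3, 10.2 and 22.0 with NC. Every gag-pol, gag and NC library lay below the 3 controls, with control replicate 3 the highest of all. With gag-pol the log2 fold change was -1.79 (SE 0.51, 95% interval -2.83 to -0.74, adjusted p = 0.024). The call was lost without control replicate 1 (adjusted p = 0.058), control replicate 2 (0.070), control replicate 3 (0.14), gag-pol replicate 1 (0.11) or gag-pol replicate 3 (0.15). With gag the log2 fold change was -0.88 (adjusted p = 0.44) and with NC -1.26 (adjusted p = 0.096).

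*WT1* had 251, 318 and 224 normalized counts in control cells, 406, 372 and 376 with gag-pol, 405, 367 and 298 with gag, and 281, 406 and 269 with NC. The gag-pol libraries were above all controls, and both gag and NC overlapped the controls. The log2 fold change with gag-pol was 0.56 (SE 0.16, 95% interval 0.23 to 0.89, adjusted p = 0.025), beside 0.44 with gag (adjusted p = 0.21) and 0.27 with NC (adjusted p = 0.29). The gag-pol call was lost without control replicate 1 (adjusted p = 0.083), control replicate 3 (0.097), gag-pol replicate 1 (0.10) or gag-pol replicate 3 (0.15), and in a fit of the 6 compared libraries alone (0.059).

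*SGCE*, whose promoter faces that of *PEG10*, had 1844, 1526 and 1640 normalized counts in control cells and 1347, 1400 and 1515 with gag-pol. The gag-pol libraries lay below the controls, and the log2 fold change of -0.23 (SE 0.09, 95% interval -0.42 to -0.04, adjusted p = 0.10) did not pass. With gag the values were 1650, 1595 and 1743, and with NC 1603, 1776 and 1575, all within the range of the controls. The log2 fold changes were -0.01 for each (95% interval -0.20 to 0.18), so that at this depth a change of *SGCE* beyond 0.20 on the log2 scale was outside the interval for gag and NC. *PPP1R9A*, which encodes the synaptic actin-binding protein neurabin and lies on the other side of *PEG10*, differed from control by -0.17 on the log2 scale in gag-pol cells, 0.00 in gag cells and -0.14 in NC cells, none of which passed.

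**Figure D2:**
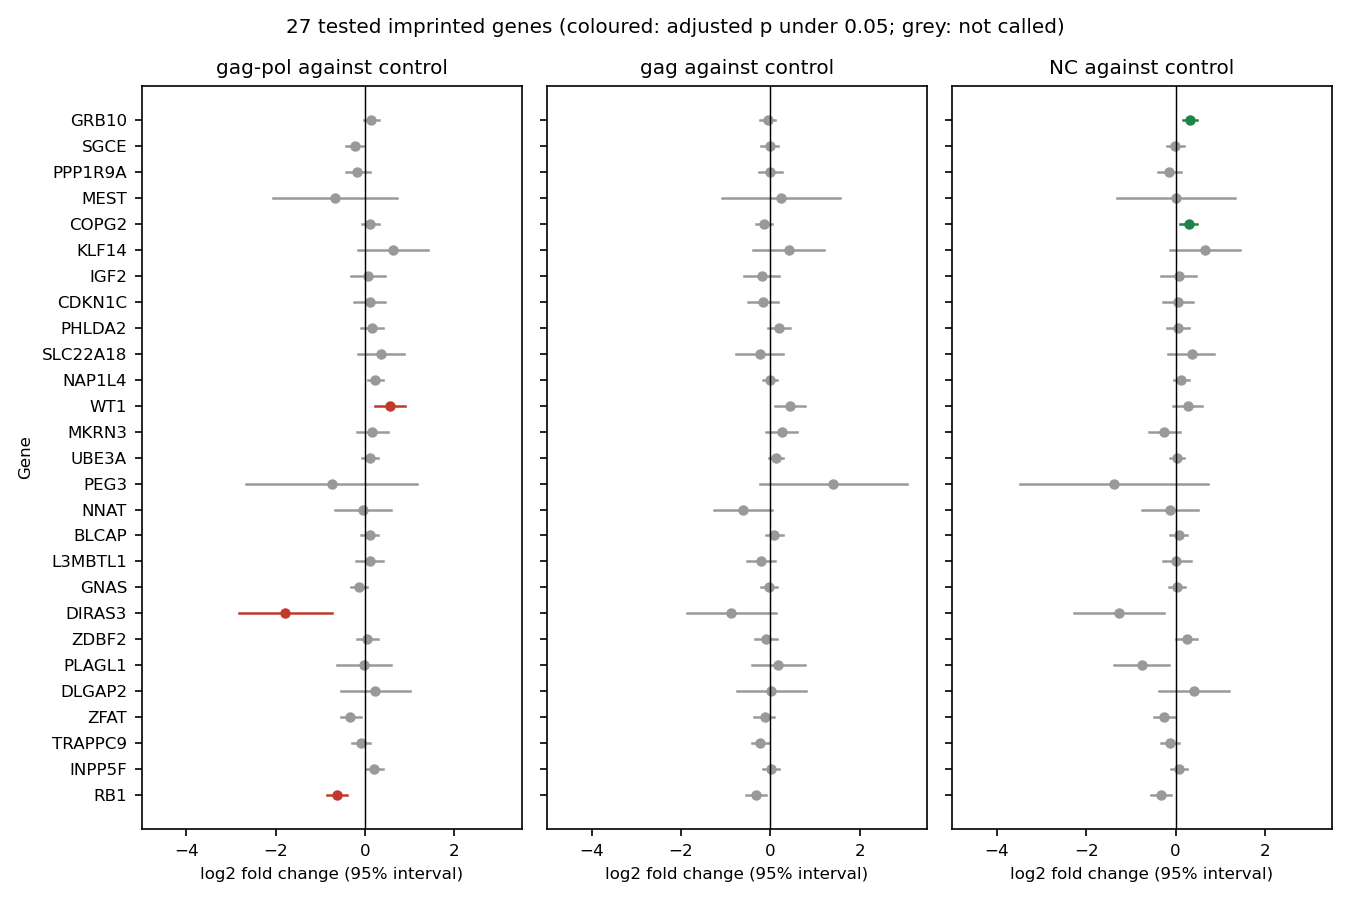
Log2 fold changes against control with 95% intervals for the 27 tested imprinted genes, in 1 panel per construct, with called genes in color and the others in grey. *DIRAS3*, *RB1* and *WT1* are colored for gag-pol, *COPG2* and *GRB10* for NC and none for gag, and the low-count genes *PEG3* and *MEST* have the widest intervals.

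Gag against control called 0 of 27 members, beside 1.08% of all genes, in the quasi-likelihood test of edgeR. DESeq2 also called 0, beside 443 of all 17176 genes. In each tool 3 members had an unadjusted p under 0.05, beside 2347 of all 17176 genes in edgeR. In edgeR the 3 members were *RB1* and *WT1*, given above, and *TRAPPC9*, a subunit of a vesicle tethering complex. The log2 fold change of *TRAPPC9* was -0.22 (SE 0.10, adjusted p = 0.30).

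NC against control called 2 of 27 members (7.41%), beside 11.2% of all genes, and both rose. Of the fibroblast markers, *COL3A1* and *COL1A1* were called lower in the same comparison. *COPG2*, a coatomer subunit of vesicles that return to the endoplasmic reticulum, had 1813, 2105 and 1597 normalized counts in control cells, 1824, 2113 and 2005 with gag-pol, 1549, 1782 and 1634 with gag, and 2285, 2556 and 1893 with NC. NC was higher than control within each replicate number although the groups overlapped, and every NC library was above every gag library. The log2 fold change against control was 0.29 (SE 0.09, 95% interval 0.10 to 0.47, adjusted p = 0.039). It was lost without gag replicate 1 (adjusted p = 0.0523), control replicate 1 (0.063), control replicate 2 (0.070), NC replicate 2 (0.11), NC replicate 1 (0.18) or control replicate 3 (0.21). *MEST*, the paternally expressed hydrolase gene whose end overlaps *COPG2* on the opposite strand over 11.7% of the *COPG2* canonical transcript, held only 3.90 to 14.5 normalized counts.

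*GRB10* had 3193, 3551 and 2433 normalized counts in control cells, 3146, 3720 and 3143 with gag-pol, 2937, 3349 and 2518 with gag, and 3940, 4199 and 3328 with NC. NC was the highest construct within each replicate number, while the ranges of NC and control overlapped. Against control the log2 fold change was 0.33 (SE 0.08, 95% interval 0.17 to 0.49, adjusted p = 0.011), or 1.26 times the control level, and the call was lost without NC replicate 1 (adjusted p = 0.060) or control replicate 3 (0.098). With gag-pol the log2 fold change was 0.14 (adjusted p = 0.27). The promoter windows of both *COPG2* and *GRB10* are printed above.

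NC against gag compares the freed fragment with the protein it is part of. Here 6 of 27 members were called (22.2%), beside 16.9% of all genes. Of these, *PEG3* entered the test through gag, the group where it is high. With at least 10 counts required in every library, 5 of 24 members were called, beside 2976 of 14991 genes. *COPG2*, *GRB10* and *ZDBF2* were higher with NC, and *MKRN3*, *PLAGL1* and *PEG3* were lower. *COPG2* differed by 0.43 on the log2 scale (SE 0.09, adjusted p = 0.0030) and *GRB10* by 0.38 (SE 0.08, adjusted p = 0.0030), and these were the members of the 6 whose calls held without any one of the 12 libraries, with highest adjusted p of 0.033 and 0.027. Epithelial markers moved in this comparison as well. *CDH1* and *EPCAM*, the 2 of 4 such markers that were tested, were both called higher with NC, and the 4 markers summed to 86.0 to 99.6 per 1000000 counts with NC, 67.6 to 75.7 with gag, 75.0 to 87.4 in control cells and 81.4 to 92.6 with gag-pol. *KRT5* and *KRT14* stayed at 5 counts or fewer. Of the 9 tested HEK293 markers 4 were called here (44.4%), 3 higher and 1 lower with NC. The part of the epithelial and HEK293 markers in the result was not tested.

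*ZDBF2*, a large paternally expressed zinc finger gene, had 1533, 3127 and 1877 normalized counts in control cells, 1453, 3064 and 2270 with gag-pol, 1277, 2846 and 2030 with gag, and 1875, 2776 and 2912 with NC. In replicate 2 NC was lower than gag, and the groups overlapped widely. The log2 difference between NC and gag was 0.35 (SE 0.11, adjusted p = 0.039), lost without gag-pol replicate 3 (adjusted p = 0.0515), gag replicate 3 (0.11), NC replicate 1 (0.17), gag replicate 1 (0.19) or NC replicate 3 (0.20).

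*PLAGL1*, a zinc finger factor that arrests growth, had 81.0, 62.7 and 85.4 normalized counts with gag and 35.9, 37.2 and 46.3 with NC, beside 58.1, 72.8 and 71.0 in control cells and 70.5, 70.2 and 57.6 with gag-pol. The 3 NC libraries were below the other 9. Against gag the log2 difference was -0.94 (SE 0.30, adjusted p = 0.032), and against control it was -0.76 (adjusted p = 0.098), which did not pass. The call was lost without NC replicate 3 (adjusted p = 0.0504), NC replicate 2 (0.078), gag replicate 3 (0.11), NC replicate 1 (0.12) or gag replicate 1 (0.14).

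*MKRN3* had 320, 284 and 252 normalized counts with gag and 202, 217 and 185 with NC, with no overlap, beside 224, 239 and 252 in control cells and 337, 237 and 231 with gag-pol. The NC libraries were lower than all others. The log2 difference between NC and gag was -0.50 (SE 0.17, adjusted p = 0.0479), and it was lost in 9 of the 12 fits without 1 library, with adjusted p from 0.0501 without NC replicate 2 to 0.20 without NC replicate 1. Of the canonical *MKRN3* transcript, 75.7% is overlapped by a gene on the opposite strand, and whether the counting used strand is not stated, so its reads cannot be told apart from those of that gene.

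*PEG3*, a zinc finger factor of the 19q13 cluster, had 8, 15 and 12 raw counts with gag, 2, 1 and 2 with NC, 1, 4 and 10 in control cells and 1, 4 and 4 with gag-pol. It reached 10 counts in 3 libraries, of which gag supplied 2, so that it entered the test through the group where it is high. The log2 difference between NC and gag was -2.78 (SE 0.93, adjusted p = 0.042), it rests on few reads, DESeq2 gave it no adjusted p, and the call was lost in 10 of the 12 fits without 1 library, with adjusted p up to 0.17 without gag replicate 1. Of the canonical *PEG3* transcript, 43.7% is overlapped on the opposite strand and 14.3% on the same strand, where *ZIM2* lies. With the strand setting not stated, some of its few reads could belong to those genes.

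**Figure D3:**
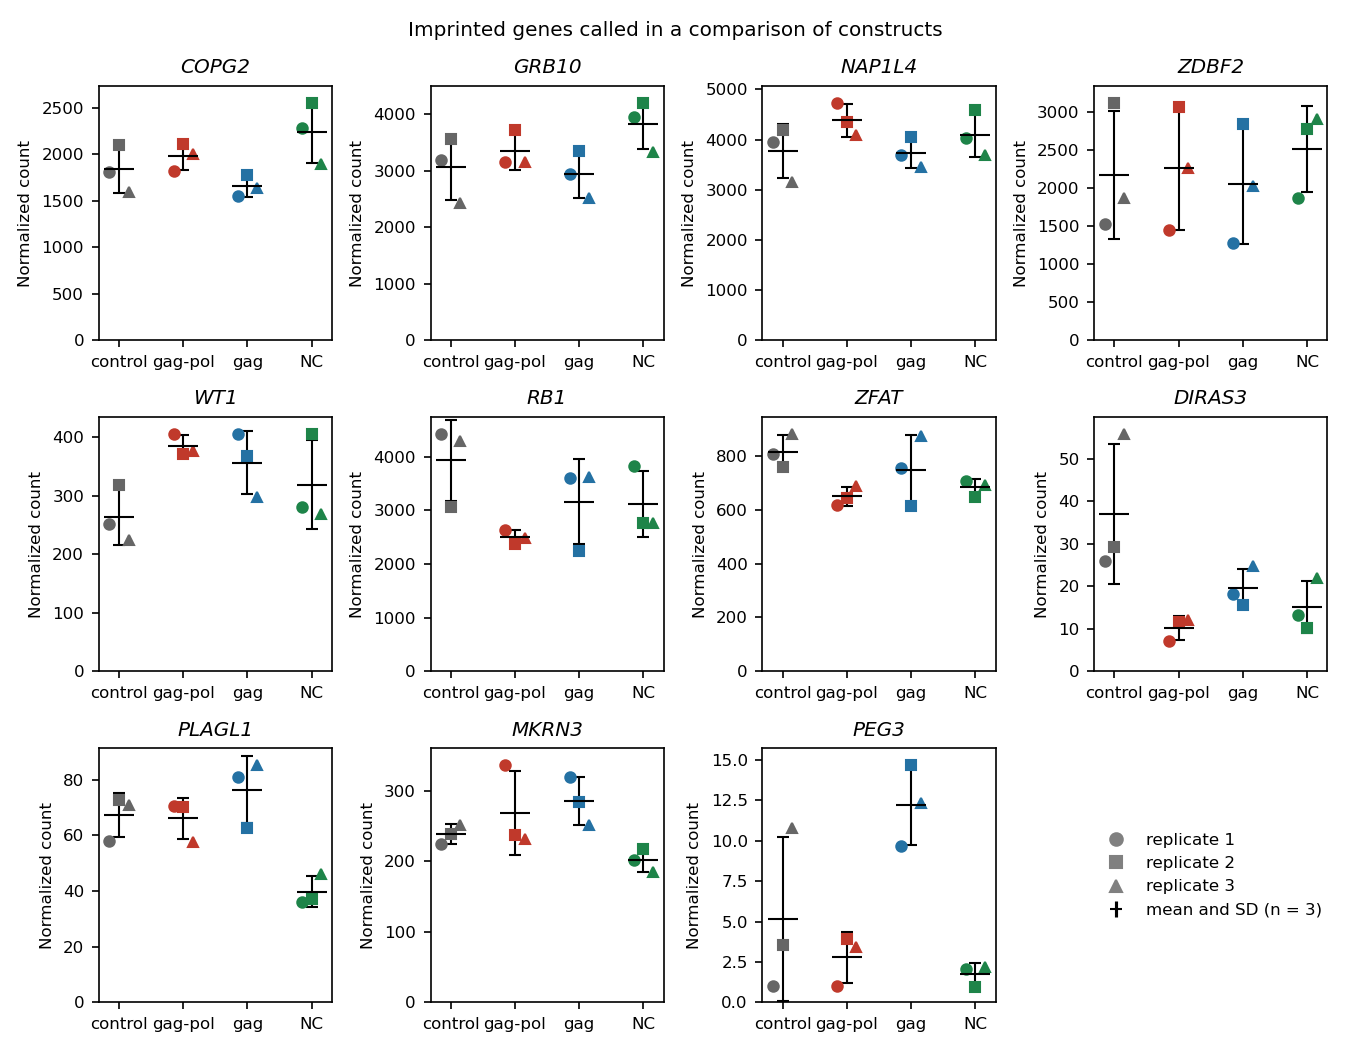
Normalized counts of the 11 imprinted genes called in any comparison of constructs, with 1 panel per gene, 1 marker shape per replicate number and black bars for the mean and SD of 3 libraries. *RB1* and *DIRAS3* are lowest with gag-pol, *GRB10* is highest with NC in every replicate number, and the NC libraries of *PLAGL1* and *MKRN3* lie below all others.

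Gag-pol against gag and NC against gag-pol called no member. For gag-pol against gag edgeR's quasi-likelihood test called 0 of 27, beside 6.46% of all genes. In that test 8 members had an unadjusted p under 0.05, beside 4022 of all 17176 genes. DESeq2 called 1 member, *NAP1L4*, beside 1603 of all 17176 genes. *NAP1L4* had a log2 difference of 0.24 (SE 0.08, 95% interval 0.07 to 0.40, adjusted p = 0.069). For NC against gag-pol the edgeR test called 0 of 27, beside 0.0873% of all genes. In it 5 members had an unadjusted p under 0.05, beside 1704 of all 17176 genes. DESeq2 called 0 members, beside 124 of all genes. *COPG2* and *GRB10* were 0.17 (95% interval -0.01 to 0.36) and 0.19 (95% interval 0.03 to 0.36) higher with NC than with gag-pol on the log2 scale, *RB1* was 0.30 higher (95% interval 0.07 to 0.54), and none of these passed the adjustment.

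Nucleocapsid can be released from gag-pol by self-cleavage, so the mean of gag-pol and NC was also compared with the mean of gag and control. Of the 9 tested HEK293 markers 5 were called in this comparison (55.6%), 3 higher and 2 lower, and their part in the result was not tested. Of the members, 6 of 27 were called (22.2%), beside 24.7% of all genes: *GRB10*, *COPG2* and *NAP1L4* were higher and *RB1*, *DIRAS3* and *ZFAT* lower. The log2 difference was 0.26 for *GRB10* (SE 0.06, adjusted p = 0.0021), 0.27 for *COPG2* (SE 0.06, adjusted p = 0.0033) and -0.32 for *RB1* (SE 0.08, adjusted p = 0.0068), and these calls held without any one library, with highest adjusted p of 0.0087, 0.015 and 0.038. Between NC and gag, however, *RB1* differed by only -0.01 (SE 0.11, adjusted p = 0.98). Its call therefore does not show a change shared by gag-pol and NC and absent with gag. *GRB10* and *COPG2* were not called with gag-pol against control (log2 fold change 0.14 and 0.12, adjusted p = 0.27 and 0.44). Against gag they were not called with gag-pol either (0.19 and 0.26, adjusted p = 0.14 and 0.080). None of the 6 was called against control with both gag-pol and NC, so a shared change was not shown for any of them.

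*NAP1L4* had 3946, 4190 and 3164 normalized counts in control cells, 4736, 4344 and 4082 with gag-pol, 3692, 4042 and 3455 with gag, and 4027, 4580 and 3696 with NC. The 3 gag-pol libraries were all above the 3 gag libraries, the other pairs of groups overlapped, and gag-pol was higher than control in each replicate number. The log2 difference of the pair means was 0.18 (SE 0.06, adjusted p = 0.019), lost without gag-pol replicate 3 (adjusted p = 0.0509), control replicate 3 (0.057), gag replicate 1 (0.068) or gag-pol replicate 1 (0.070).

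*ZFAT*, a zinc finger and AT-hook protein gene whose imprinting is debated, had 805, 757 and 882 normalized counts in control cells, 617, 643 and 687 with gag-pol, 753, 613 and 872 with gag, and 708, 646 and 693 with NC. Gag-pol and NC lay below all controls, and gag replicate 2 was the lowest library of all 12. The log2 difference of the pair means was -0.22 (SE 0.08, adjusted p = 0.041). It was lost in 9 of the 12 fits without 1 library, with adjusted p from 0.056 without NC replicate 1 to 0.14 without gag replicate 3. *DIRAS3* differed by -1.09 (SE 0.36, adjusted p = 0.029) and was lost in 11 of the 12 fits, up to 0.10 without control replicate 3. Between NC and gag alone *DIRAS3* differed by -0.39 (SE 0.51, adjusted p = 0.66).

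A joint test of any difference among the 4 constructs called 4 of 27 members (14.8%), beside 20.6% of all genes. These were *RB1* (adjusted p = 0.0050), *GRB10* (0.0055), *COPG2* (0.0084) and *DIRAS3* (0.0466). *RB1* and *GRB10* kept this call without any one library, *COPG2* lost it without NC replicate 1 (adjusted p = 0.0552), and *DIRAS3* lost it in each of the 12 fits. When the replicate number was left out of the model, no member was called in any comparison of constructs, beside 0 to 3 of all 17176 genes tested.

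More members differed among replicate numbers than among constructs. The replicates came from independent passages, but which passage or harvest date belongs to a number is not given. Of the 27 tested members 12 differed among the 3 numbers (44.4%), beside 52.8% of all genes, and in DESeq2 the number was also 12. On average over the 4 constructs, 7 of the 12 were lowest in replicate 1, namely *ZDBF2*, *IGF2*, *CDKN1C*, *L3MBTL1*, *PPP1R9A*, *PHLDA2* and *DLGAP2*, and 4 were lowest in replicate 3, namely *GRB10*, *NAP1L4*, *INPP5F* and *COPG2*. Of the 12, *RB1* alone was lowest in replicate 2. *INPP5F*, a phosphoinositide phosphatase gene with an imprinted isoform, had means of 1410, 1555 and 1280 normalized counts in replicates 1, 2 and 3.

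*IGF2*, the paternally expressed growth factor, had 181, 310 and 264 normalized counts in control cells, 125, 301 and 421 with gag-pol, 127, 285 and 274 with gag, and 168, 285 and 363 with NC. All 4 libraries of replicate 1, at 125 to 181, were below the other 8, at 264 to 421. The log2 difference from replicate 1 was 0.98 for replicate 2 (SE 0.17, adjusted p = 1.3e-04) and 1.13 for replicate 3 (SE 0.17, adjusted p = 1.2e-05). Of the *IGF2* canonical transcript 45.1% is shared with *INS-IGF2*, which was at 0 in every library. *IGF2* differed from control by 0.06 in gag-pol cells, -0.19 in gag cells and 0.07 in NC cells on the log2 scale, with 95% intervals from -0.58 to 0.45 in all, and none passed.

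*ZDBF2*, whose values are given above, averaged 1535 normalized counts in replicate 1, 2953 in replicate 2 and 2272 in replicate 3, and replicate 2 exceeded replicate 1 by 0.96 on the log2 scale (SE 0.10, adjusted p = 1.6e-06). *CDKN1C*, which halts the cell cycle and is mutated in Beckwith-Wiedemann syndrome, had 172, 305 and 326 normalized counts in control cells, 217, 268 and 369 with gag-pol, 193, 221 and 288 with gag, and 178, 315 and 335 with NC. Replicate 1 was the lowest in each construct. The log2 difference of replicate 3 from replicate 1 was 0.79 (SE 0.14, adjusted p = 1.4e-04). The nearby *PHLDA2*, a placental growth restrainer, was also lowest in replicate 1 in each construct, with means of 487, 603 and 659 normalized counts in replicates 1, 2 and 3.

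*L3MBTL1*, a paternally expressed reader of methylated histones, had 485, 937 and 654 normalized counts in control cells, 544, 893 and 770 with gag-pol, 438, 785 and 573 with gag, and 611, 605 and 824 with NC. Replicate 2 was the highest in all constructs but NC, where it was the lowest. *PPP1R9A* and the postsynaptic scaffold gene *DLGAP2* also had their NC value of replicate 2, at 758 and 50.2 normalized counts, below that of replicate 1, at 929 and 83.1, in contrast to the other 3 constructs. An overlapping gene on the same strand covers 98.2% of the canonical *L3MBTL1* transcript.

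*RB1* was higher in replicate 1, at 3624 normalized counts on average, than in replicate 2, at 2613, a log2 difference of -0.45 for replicate 2 against 1 (SE 0.10, adjusted p = 0.0018). *GRB10* had 3304 in replicate 1, 3705 in replicate 2 and 2855 in replicate 3, a log2 difference of -0.38 for replicate 3 against 2 (SE 0.07, adjusted p = 3.0e-04). *RB1* and *GRB10* thus differed both among constructs and among replicate numbers.

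**Figure D4:**
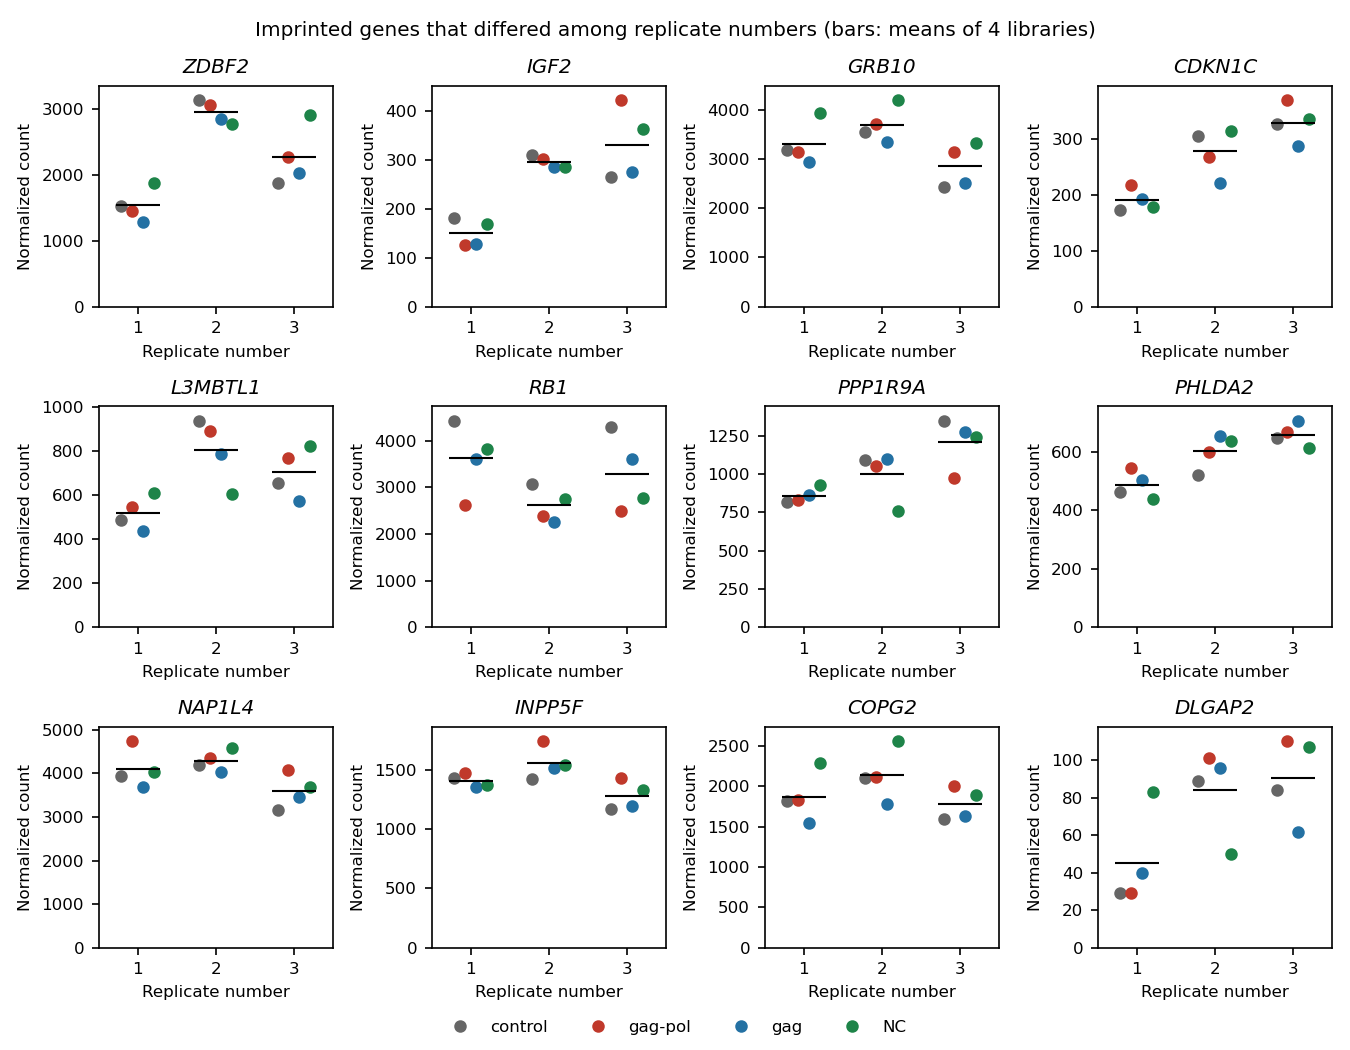
Normalized counts of the 12 imprinted genes that differed among replicate numbers, by replicate number (x axis), with 1 color per construct and a black bar for the mean of 4 libraries. The *IGF2* points of replicate 1 lie at 125 to 181, below all others, while *RB1* is lowest in replicate 2.

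The other 9 tested members passed no test of constructs in the edgeR fit of all 12 libraries and were not called in its joint test of replicate numbers. In the pairwise tests of replicate numbers, *UBE3A* was lower in replicate 3, at 3348 normalized counts on average, than in replicate 1, at 3788, a log2 difference of -0.18 (SE 0.07, adjusted p = 0.043). Highly expressed among them were *GNAS*, *UBE3A*, *BLCAP* at 1526 to 2001 normalized counts, *SGCE* and *TRAPPC9* at 948 to 1191. *BLCAP* varied little, with 1614, 1782 and 1543 in control cells and differences from control of 0.10 (gag-pol), 0.09 (gag) and 0.07 (NC) on the log2 scale (95% intervals from -0.12 to 0.28 in all). *NNAT*, the paternally expressed neuronatin gene within *BLCAP*, was at 42.3 to 102 normalized counts, with the gag libraries at 42.3, 59.8 and 49.4 below the controls at 65.4, 95.8 and 72.0, and its log2 fold change of -0.61 (SE 0.31, adjusted p = 0.39) did not pass. *KLF14*, a maternally expressed Kruppel-like factor of 7q32, was at 20.4 to 65.1, *SLC22A18*, a transporter-like gene of 11p15, at 51.5 to 146, and *MEST* at 3.90 to 14.5. In the comparison of pair means *SLC22A18* had a log2 difference of 0.47 (SE 0.18, adjusted p = 0.0551). DESeq2 and some fits without 1 library called it there.

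**Figure D5:**
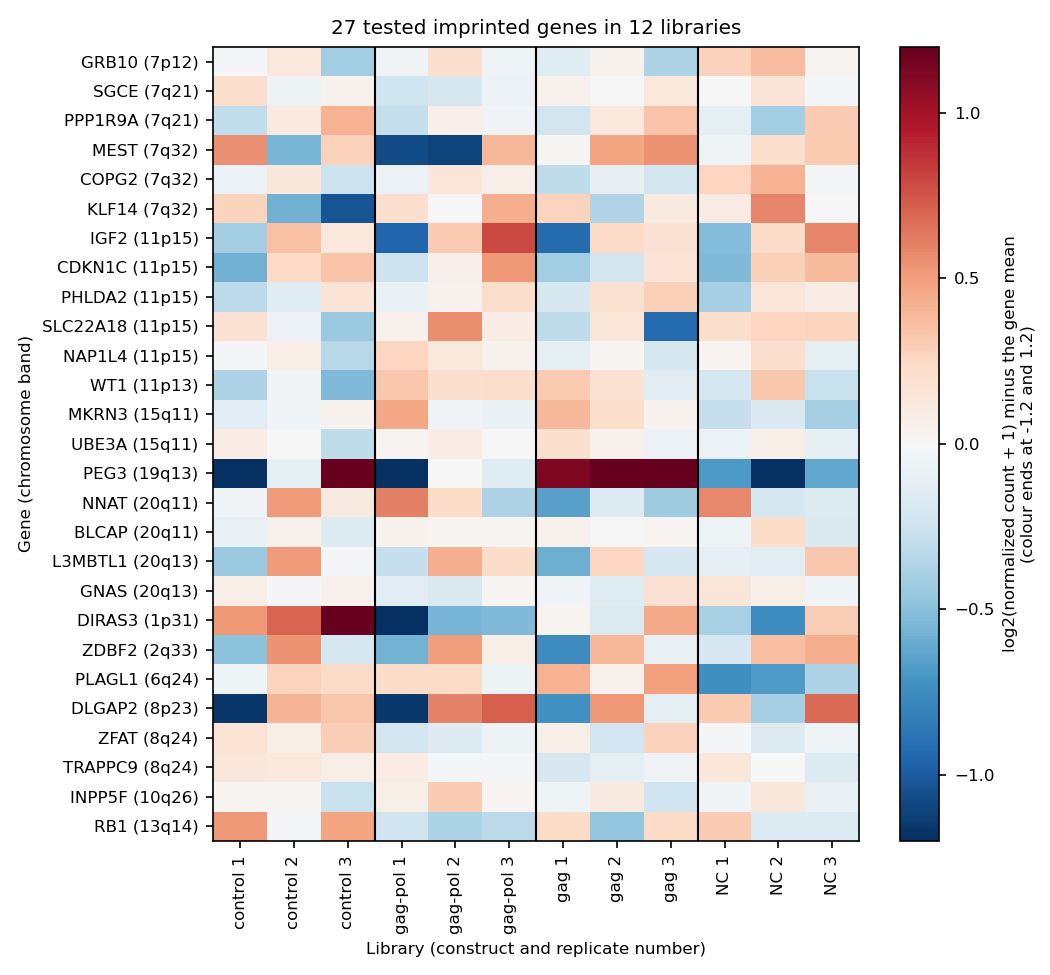
The 27 tested imprinted genes (rows, with chromosome band) in 12 libraries (columns), colored by log2(normalized count + 1) minus the mean of the gene, with the scale ending at -1.2 and 1.2. *DIRAS3* is red in the control columns and blue with gag-pol, and *IGF2*, *CDKN1C* and *ZDBF2* are blue in replicate 1 of every construct.

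Genes that keep imprints in place were followed beside the members. This list and the further lists below were chosen with earlier results of these data known, so their shares are descriptions and not tests. Of 26 such factors 20 were tested, and edgeR called 0 with gag-pol and 0 with gag, whereas 2 of 20 fell with NC, beside 11.3%, 1.08% and 11.2% of all genes in these comparisons. At an unadjusted p under 0.05 in edgeR there were 5 with gag-pol and 2 with gag, beside 4696 and 2347 of all 17176 genes. DESeq2 called 1 in each, the histone methyltransferase gene *EHMT2*, beside 2427 and 443 of all genes. *ARID4A*, a chromatin factor tied to the imprint at the Prader-Willi region, had 1586, 1385 and 1771 normalized counts in control cells and 1225, 988 and 1330 with NC, lower in each replicate number, with a log2 fold change of -0.43 (SE 0.10, adjusted p = 0.0087, and 0.060 without control replicate 3). *ZFP57*, the imprint-binding zinc finger gene, was near the limit of detection at 17.6, 3.55 and 23.7 normalized counts in control cells and 2.05, 0.930 and 1.10 with NC (log2 fold change -3.20, SE 0.95, adjusted p = 0.032). The *ZFP57* call was lost without control replicate 2 (adjusted p = 0.0544), control replicate 1 (0.087), NC replicate 1 (0.11), control replicate 3 (0.17) or NC replicate 3 (0.18), and DESeq2 gave it no adjusted p. In the comparison of pair means 7 of the 20 were called, beside 24.7% of all genes, all lower with gag-pol and NC: *ARID4A*, *HELLS*, *YY1*, *TET2*, *EZH2*, *ZFP57* and *TET3*. Of these, *HELLS*, *YY1*, *TET2*, *EZH2* and *TET3* were called against control with neither gag-pol nor NC. Their log2 differences of the pair means ran from -0.16 to -0.32, with adjusted p from 0.021 (*HELLS*) to 0.0491 (*TET3*). Whether the pair-mean calls of this list held without each library was not examined.

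Of 56 further imprinted genes 30 were tested, of which 3 were called for gag-pol, 1 for gag (3.33%) and 5 for NC (16.7%), beside 11.3%, 1.08% and 11.2% of all genes. *IGF2R*, the receptor that takes up IGF2 for degradation, had 5128, 5655 and 7522 normalized counts in control cells, 3962, 5090 and 5051 with gag-pol, 5036, 4876 and 7077 with gag, and 4488, 3906 and 5790 with NC. It was lower than control in each replicate number with all 3 constructs, and passed with gag-pol (log2 fold change -0.36, SE 0.09, adjusted p = 0.017) and NC (-0.36, SE 0.09, adjusted p = 0.017) but not with gag (-0.11, adjusted p = 0.67). The gag-pol call was lost without control replicate 2 (adjusted p = 0.062), control replicate 3 (0.095), gag-pol replicate 1 (0.10) or gag-pol replicate 3 (0.13), and the NC call without control replicate 2 (0.057), NC replicate 2 (0.087) or control replicate 3 (0.11). *TSSC4* of 11p15 fell with gag-pol by 0.38 and with NC by 0.32 on the log2 scale (adjusted p = 0.015 and 0.038), and *ADAM23*, a neighbor of *ZDBF2* on 2q33, rose by 0.37 and 0.54 (adjusted p = 0.019 and 0.0024). With NC *KCNQ1* rose by 0.54 (adjusted p = 0.040) and *ZNF597* fell by 0.53 (adjusted p = 0.029), and with gag *ZC3H12C* rose by 0.49 (adjusted p = 0.039), all on the log2 scale. Of these, the *ADAM23* rise with NC held without any one library, with a highest adjusted p of 0.021. Each other call was lost in 2 to 6 of the 12 fits, with adjusted p up to 0.34 for *ZC3H12C* without gag replicate 1 and 0.25 for *TSSC4* with NC without NC replicate 3.

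Around *PEG10* at 7q21, 12 of 16 further neighbors were tested. *COL1A2* and *CASD1* were called higher with gag-pol and with gag, 2 of 12 (16.7%) in each. With NC 0 were called in edgeR or DESeq2. At an unadjusted p under 0.05 in edgeR there was 1 with NC, beside 4650 of all 17176 genes. The shares of all genes called against control were 11.3%, 1.08% and 11.2% for gag-pol, gag and NC. Because the neighbors were listed with earlier results of these data known, setting the shares side by side is no test. *CASD1*, a sialic acid acetyltransferase gene next to *SGCE*, had 236, 255 and 271 normalized counts in control cells, 632, 397 and 408 with gag-pol, 585, 448 and 698 with gag, and 340, 319 and 268 with NC, with gag-pol and gag above all controls. On the log2 scale it was 0.89 above control in gag-pol cells (SE 0.17, adjusted p = 0.0026) and 1.17 in gag cells (SE 0.17, adjusted p = 7.5e-04), and both calls held without any one library. *SGCE* and *PPP1R9A*, which flank *PEG10*, did not pass in either. *COL1A2* had 9.34, 8.87 and 9.68 normalized counts in control cells, 178, 128 and 61.0 with gag-pol and 143, 78.4 and 158 with gag. Its log2 fold changes were 3.70 (SE 0.48, adjusted p = 1.3e-04) and 3.71 (SE 0.47, adjusted p = 2.9e-04). *PEG10*, plasmid included, had 2835976, 1331653 and 1089346 normalized counts with gag-pol and 2194288, 1409241 and 2439086 with gag. Its part in the *CASD1* and *COL1A2* values was not tested.

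In the insulin-like growth factor axis, to which *IGF2*, *IGF2R* and *GRB10* belong, 16 of 19 further genes were tested, of which 3 were called for gag-pol (18.8%), 0 for gag and 4 for NC (25.0%), beside 11.3%, 1.08% and 11.2% of all genes. The axis was also listed with earlier results of these data known, so these shares are no test. For gag, 4 had an unadjusted p under 0.05 in edgeR, beside 2347 of all 17176 genes. DESeq2 called 1 for gag, *IGFBP5*, beside 443 of all genes. *IRS4*, the insulin receptor substrate typical of HEK293 cells, had 23536, 25681 and 9712 normalized counts in control cells, 34399, 38776 and 20003 with gag-pol, 25758, 28651 and 12280 with gag, and 34148, 32138 and 18756 with NC. It was above control in each replicate number with every construct, and the log2 fold change was 0.72 for gag-pol (SE 0.10, adjusted p = 1.0e-04), 0.60 for NC (SE 0.10, adjusted p = 9.6e-04) and 0.20 for gag (SE 0.10, adjusted p = 0.35). The gag-pol and NC calls held without any one library. *IRS2* rose with gag-pol by 0.38 on the log2 scale (adjusted p = 0.0038), and *IGFBP2*, a binding protein for IGF2, and *IGF2BP3*, which binds *IGF2* mRNA, rose with NC by 0.27 and 0.30 (adjusted p = 0.023 and 0.033). The *IGFBP2* call was lost without control replicate 2 (adjusted p = 0.0511), control replicate 1 (0.059), NC replicate 2 (0.061), NC replicate 1 (0.092) or control replicate 3 (0.11), and the *IGF2BP3* call without NC replicate 1 (0.071), NC replicate 3 (0.18) or control replicate 3 (0.28). *IGF2R* counts in both this axis and the further imprinted genes.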

How the data were processed

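RNA-seq counts of 12 libraries, 3 for each of 4 constructs, were analysed. Per the labels and the methods of the study, the authors mapped read pairs of poly(A) RNA to GRCh38.p13 with STAR 2.7.3 and obtained gene counts with featureCounts. The deposited values are these raw counts, with no normalization. The annotation release, strand setting and treatment of multi-mapping reads are not given in the sources used here, so counts of overlapping genes are uncertain. The members and all gene lists were chosen with earlier results of these data known.

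Counts were fitted with edgeR 4.0.16 in R 4.3.3 (TMM normalization, minimum count 10, minimum total count 15, robust quasi-likelihood test) with construct and replicate number as terms, leaving 6 residual degrees of freedom. P-values were adjusted by Benjamini and Hochberg's method over 17176 genes, of which 27 are members, and 0.05 was the threshold. The replicate number was taken to mark a shared passage, which is inferred, since the labels tie no number to a passage or harvest date. After removal of construct means, the 18 pairs of libraries with the same number correlated at 0.138 to 0.539 and the 36 with different numbers at -0.498 to 0.072. Libraries of 1 construct all differed beyond counting noise, so none was counted as a duplicate. Depth was 30625725 to 45316749 counts per library, which limits the members under about 10 counts, and the limit for a gene at 0 is 3 counts and covers counting error only. The script was tested on simulated counts. Gene positions, lengths and overlaps are from GENCODE 44 and promoters from RefSeq, where 23 members had a window. Genes were named by rule: members called in a pairwise comparison of constructs or in the joint test, the 6 members with the smallest p among replicate numbers, the 5 highest per kb in control cells, and at most 6 genes of each further list called against control. *NAP1L4*, *ZFAT* and the uncalled members with values were named so that all members are accounted for. Alternatives were DESeq2 1.42.0, RLE size factors, *PEG10* left out, no filter on low counts, 10 or more counts in all libraries, no replicate number, only the 6 libraries compared, and each library left out. Tables were made with pandas 2.3.3 in Python 3.11.15 and figures with matplotlib 3.10.9.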

Additional observations from a re-analysis of the deposited data

How the results depend on the processing

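Fits without the replicate block, which ignore the pairing of libraries by number, inferred to be the passage, called 0 members in each of the 7 comparisons of constructs and in the joint test, instead of 3 for gag-pol against control, 2 for NC against control, 6 for NC against gag, 6 for the pair means and 4 for the joint test, and the sign of each called fold change was kept. Of all 17176 genes tested, those fits called 0 to 3 in each comparison. DESeq2 called 5 members for gag-pol against control, 3 for NC against control and 1 for gag-pol against gag. Of all 17176 genes it called 2427, 2448 and 1603 in these comparisons, beside 1942, 1922 and 1109 in edgeR. Without a filter on low counts, 3 were called for NC against control and 1 for gag-pol against gag, beside 2311 and 1531 of 22950 genes. With only the 6 libraries compared, in a fit with the replicate block, 1 member, *RB1*, was called for gag against control, beside 344 of 16609 genes. The same setting called 3 for NC against control, 3 for gag-pol against gag and 2 for NC against gag. Beside these stood 2100 of 16426, 2628 of 16517 and 2129 of 16453 genes. With each library left out in turn, the number of members called ran from 1 to 5 for gag-pol against control, 0 to 3 for NC against control, 0 to 2 for gag-pol against gag, 2 to 6 for NC against gag, 3 to 8 for the pair means, 2 to 6 for the joint test and 10 to 13 among replicate numbers, and it was 0 in every fit for gag against control and for NC against gag-pol. Over the alternatives tried, 219 of 313 values of the 17 called fold changes kept their side of the threshold, 94 lost it and none changed sign. RLE size factors, *PEG10* left out and a strict filter left the counts within 1.5 times of those reported. *DIRAS3*, *PEG3* and *MEST* are limited by their few counts.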
